A study of Mus musculus with 8 samples.

Results

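Messenger RNAs (mRNAs) for 7 proteins that store, silence or degrade maternal mRNA were compared in mouse metaphase II oocytes. They were Eif4e1b, Pum2, Caprin2, Cnot6l, Dcp1a, Eri1 and Hnrnpa3, picked by gene name from among the cap-binding, RNA-binding, deadenylation, decapping and exonuclease genes of the deposited table, in which 6 further genes of such lists have a row. They make up 7 of its 417 genes and 10 of its 469 rows. The 8 libraries were 4 labelled KO, from L/L cre females, and 4 labelled Ctrl, with the genotype entered as WT and the title giving L/L. All females were about 6 months old, and L/L is common to both groups. The series sets out to describe transcripts of mature oocytes that carry more reactive oxygen species in their mitochondria. The labels name neither the gene carried as L/L nor the cells in which Cre, a recombinase, is active, so loss of the target was not checked here. Oocytes were merged before lysis and amplified by Smart-seq2, which copies whole transcripts from very little RNA.

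A fully grown oocyte stops transcribing, and from then on its proteins come from mRNAs made and stored earlier. Storage and use are set largely at both ends of the mRNA. At the cap, the oocyte cap-binding protein EIF4E1B marks stored messages, and at the tail, CPEB binds the cytoplasmic polyadenylation element and PUMILIO proteins bind their own element in the 3′ untranslated region (UTR). During maturation and after fertilization the stored messages are cleared by shortening of the tail, carried out by the CCR4-NOT complex, and then by removal of the cap and exonuclease digestion.

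The elements read by this machinery can be located in the members' own 3′ UTRs. They are shown because Pum2 reads one of them and CPEB, named above, reads the other. For each gene the longest annotated protein-coding transcript was read in GENCODE M21 (GRCm38), on the transcript's strand, for the cytoplasmic polyadenylation element (TTTTAT or TTTTAAT) and the Pumilio element (TGTANATA). The first set gives the polyadenylation element nearest the 3′ end, in capitals within 30 bases, with its place in the genome. The second set gives the Pumilio element in the same way.

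Dcp1a, chr14:30527010-30527039, plus strand: caaatatatttTTTTAATaaaatttcaaaa
Eri1, chr8:35465296-35465325, minus strand: gtagcataggaaTTTTATgaaataaaattt
Caprin2, chr6:148842674-148842703, minus strand: ttttgttttccaTTTTATgtgaagactttg
Pum2, chr12:8751625-8751654, plus strand: tagaagggatttTTTTATtcgaggtctgca
Cnot6l, chr5:96072106-96072135, minus strand: ttaaatgttgacTTTTATggtgcagcctat
Hnrnpa3, chr2:75667423-75667452, plus strand: tgttaaccatctTTTTATgtataatagtga

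Eri1, chr8:35465271-35465300, minus strand: aattttgatgtTGTAAATAaagctttgtgg
Dcp1a, chr14:30525246-30525275, plus strand: ggcttcctcagTGTAGATAcaaacttctgg
Pum2, chr12:8750407-8750436, plus strand: atgtacagaatTGTATATActtataattgt
Hnrnpa3, chr2:75666692-75666721, plus strand: gttattctttgTGTATATAtatatatatct
Cnot6l, chr5:96075175-96075204, minus strand: gcaaagtttgaTGTAAATAaaatattcttt

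A polyadenylation element was found in 6 of the 7 3′ UTRs (85.7%), against 72.3% of the 394 listed genes and 56.3% of 20917 protein-coding genes with an annotated 3′ UTR. A Pumilio element was found in 5 of 7 (71.4%), against 31.7% and 23.2%. The members' 3′ UTRs are longer, with a median of 3757 bases against 1416.5 and 935. Per kilobase, Pumilio elements stood at 0.396 in the members, 0.286 in the listed genes and 0.235 in all, and polyadenylation elements at 1.72, 1.54 and 1.34. Eif4e1b, with 1055 bases of 3′ UTR, held neither. In Dcp1a and Eri1 the polyadenylation element lay within the last 100 bases, 43 and 61 bases from the annotated end, 28.6% of the members against 24.1% of the listed genes and 17.1% of all. The element TTTTAAT can share its AAT with the polyadenylation signal AATAAA, as it does in Dcp1a. The Pumilio elements shown for Eri1 and Cnot6l likewise share their AATA with an AATAAA. A match describes letters, and the deposited rows carry no transcript identifier, so which 3′ UTR the measured transcripts end in is not known.

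**Figure D1:**
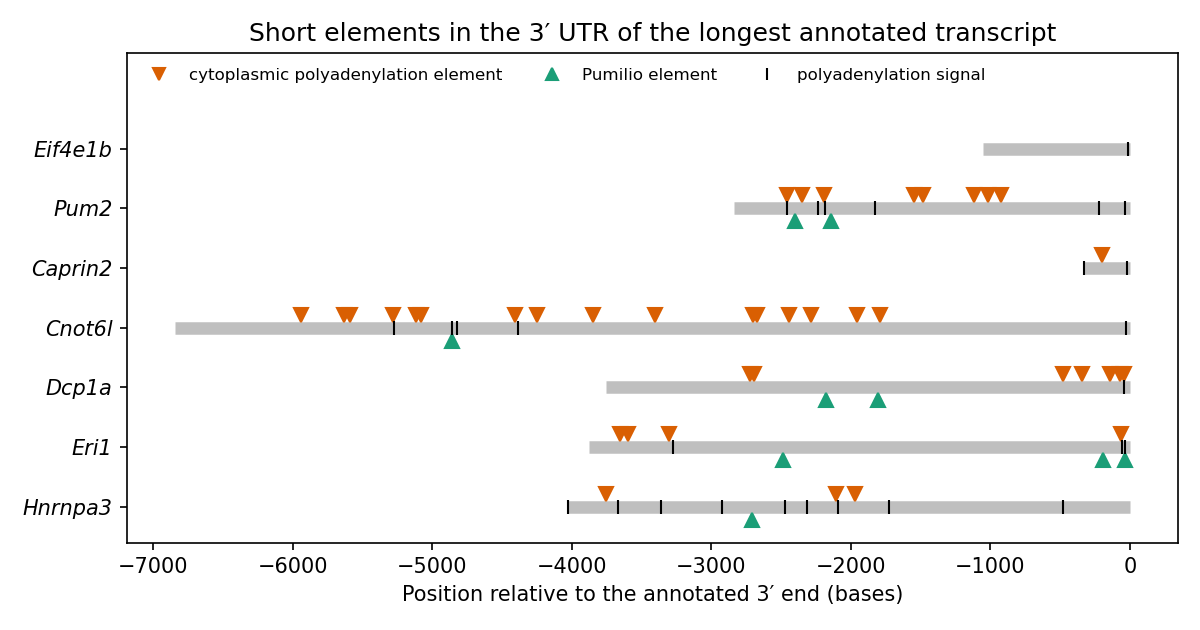
Positions of short elements in the annotated 3′ UTR of the longest protein-coding transcript of each gene, in bases from its 3′ end at the right. Grey bars are the 3′ UTRs. The cytoplasmic polyadenylation elements of Dcp1a and Eri1 at 43 and 61 bases stand at the right edge, while those of Cnot6l, Pum2 and Hnrnpa3 lie farther in. Polyadenylation signals (AATAAA) are drawn too, and stand at the right edge in genes such as Cnot6l (25 bases) and Pum2 (35 bases).

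Levels are TPM, a transcript abundance per unit length that sums to the same total in each library. Sequencing depth is unknown. Eif4e1b has 4 rows and the other 6 members 1 row each. GENCODE M21 annotates more transcripts for every member: 10 for Eif4e1b, 16 for Pum2, 11 for Caprin2 and 10 for Cnot6l. For Dcp1a it annotates 18, for Eri1 4 and for Hnrnpa3 7. The levels below describe the listed rows, and any transcript without a row is not part of them. Every deposited row differs at least 2.04-fold between the group means, so the table is read as a list picked for its difference, and counts of calls and p-values are not independent evidence of one. Of 402 genes tested with limma on log2(TPM + 1), 93.8% passed an adjusted p of 0.05, 57.2% as lower and 36.6% as higher in KO. Whether each library had its own animals is not stated in the labels, and the p-values therefore describe spread between libraries that could be technical. None of the 15 oocyte, 14 cumulus and granulosa or 13 other cell type markers on the lists used has a row, so the labelled cell type was not checked here. The libraries Ctrl 2 and Ctrl 4 stood apart: in 163 of the 248 genes lower in KO (65.7%), both lay above Ctrl 1 and Ctrl 3. The same held for 5 of the 6 members lower in KO, all but Eri1. A lower TPM is a smaller part of the library's total, and the amount of RNA per oocyte cannot be read from these values.

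In KO oocytes, the cap-binding Eif4e1b, the RNA-binding Pum2 and Caprin2, the deadenylase Cnot6l, the exonuclease Eri1 and the hnRNP Hnrnpa3 were lower, and the decapping cofactor Dcp1a was higher. All 7 passed, where 93.8% of the table did, 6 as lower (57.2% of the table) and 1 as higher (36.6%), so passing does not set them apart. The groups did not overlap for Eif4e1b, Eri1, Hnrnpa3 and Dcp1a, 4 of 7 genes against 56.5% of all genes tested (36.3% with KO below and 20.1% with KO above). Eri1 and Hnrnpa3 kept their call in each of the 19 alternatives run for them. Both reached the mean of 1 TPM required for testing through Ctrl alone (means of 0.153 and 0.00220 TPM in KO, against 6.78 and 5.15 TPM in Ctrl), so they had to differ and these calls support nothing. The members' TPM added up to 68.2, 44.9, 56.4 and 66.2 in KO libraries 1 to 4, against 90.6, 200.3, 91.3 and 200.8 in Ctrl libraries 1 to 4. All KO sums lay below all Ctrl sums, and the sums of Ctrl 2 and Ctrl 4 stood far above those of Ctrl 1 and Ctrl 3. Cnot6l alone made up 41.9% to 69.9% of these sums over the 8 libraries. The TPM of all listed genes also added up to less in every KO library (12869 to 19916) than in any Ctrl library (32000.2 to 42538), so a lower sum is not particular to the members.

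**Figure D2:**
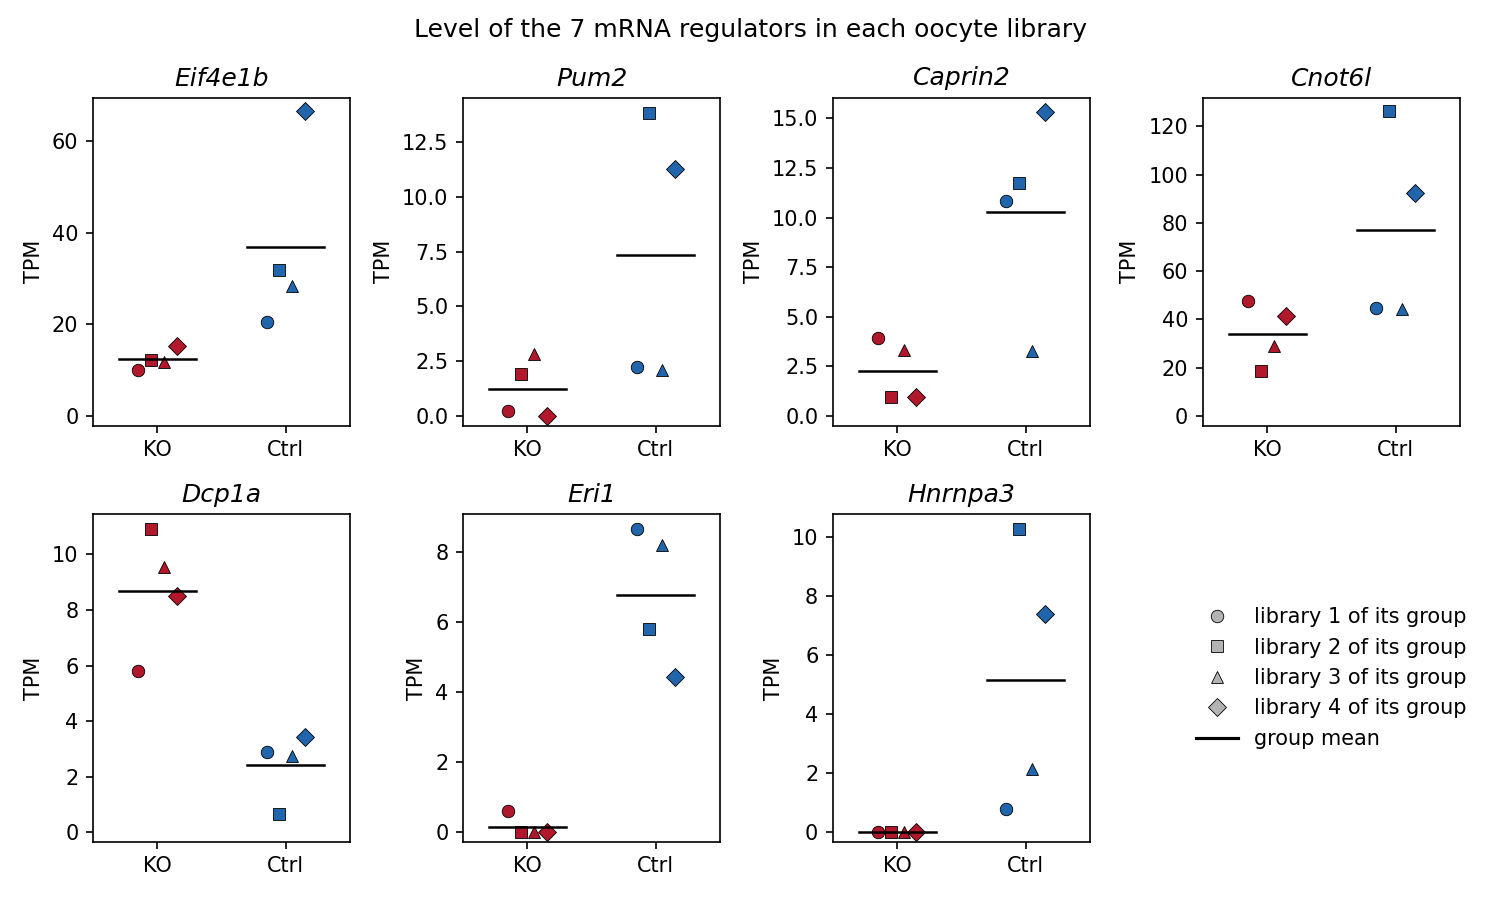
TPM of each gene in each library (points), with the group mean as a line and KO left of Ctrl. Points are shaped by library number within its group, and the same shape is not meant as a pair across groups. KO lies below Ctrl without overlap for Eif4e1b, Eri1 and Hnrnpa3 and above it for Dcp1a, and the square and the diamond of Ctrl are the highest points for Pum2, Cnot6l and Hnrnpa3.

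At the cap, Eif4e1b (ENSMUSG00000074895.10, chromosome 13, 54783998 to 54788459, plus strand) encodes the oocyte relative of the translation factor EIF4E. Its 4 rows summed to 9.95, 12.2, 11.8 and 15.4 TPM in KO libraries 1 to 4, against 20.4, 31.8, 28.5 and 66.5 TPM in Ctrl libraries 1 to 4. The groups did not overlap, and Ctrl 4 lay far above the other Ctrl libraries. The mean was 12.4 ± 2.25 TPM in KO and 36.8 ± 20.4 TPM in Ctrl (SD, n = 4 each), or -1.38 ± 0.41 (SE) as log2 fold change (limma adjusted p = 0.0144). With median-of-ratios scaling the call was lost (-0.61, limma adjusted p = 0.138) and likewise without Ctrl 2 and Ctrl 4 (-0.93, limma adjusted p = 0.0937). The predicted gene Gm5705 is 95.04% identical over 726 bp, so reads may be split with it.

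The 4 Eif4e1b rows, numbered by their Ctrl mean, did not move by the same amount. Row 1 held 3.72, 5.12, 3.59 and 8.83 TPM in KO, against 10.5, 12.6, 10.7 and 28.0 TPM in Ctrl. Row 4 held 0, 0.0133, 0.582 and 9.75e-08 TPM in KO, against 1.81, 1.30, 4.28 and 7.69 TPM in Ctrl. Both were lower in every KO library than in any Ctrl library, and row 4 was at or near 0 in 3 KO libraries. Row 3 ran from 1.89 to 4.04 TPM in KO and from 4.09 to 11.5 TPM in Ctrl, a gap of 0.0469 TPM. Row 2 overlapped, at 3.38 to 4.34 TPM in KO and 3.999 to 20.8 TPM in Ctrl. Tested one by one among 450 rows, of which 57.8% passed as lower, rows 1, 3 and 4 passed (limma adjusted p = 0.0215, 0.0430 and 0.00639) and row 2 did not (0.0793). The call of row 1 was lost with median-of-ratios scaling (limma adjusted p = 0.187) and without Ctrl 2 and Ctrl 4 (0.137). That of row 3 was lost under both of these (limma adjusted p = 0.368 and 0.305) and with quantile normalization (0.0840). Row 4 passed with either scaling (limma adjusted p = 0.0145 for median of ratios and 0.00749 for quantiles), and without Ctrl 2 and Ctrl 4 (0.0200). It averaged 0.149 TPM in KO and 3.77 TPM in Ctrl. Row 4 thus reached the mean of 1 TPM required for testing through Ctrl alone, and its calls support nothing. Its share of the Eif4e1b sum was 1.25% ± 2.44 in KO and 9.89% ± 4.61 in Ctrl (SD, n = 4 each). With 4.91% in KO 3 above 4.10% in Ctrl 2, the shares overlapped and the difference did not pass (exact two-sided permutation p = 0.0571, where 4 against 4 allow 0.0286).

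**Figure D3:**
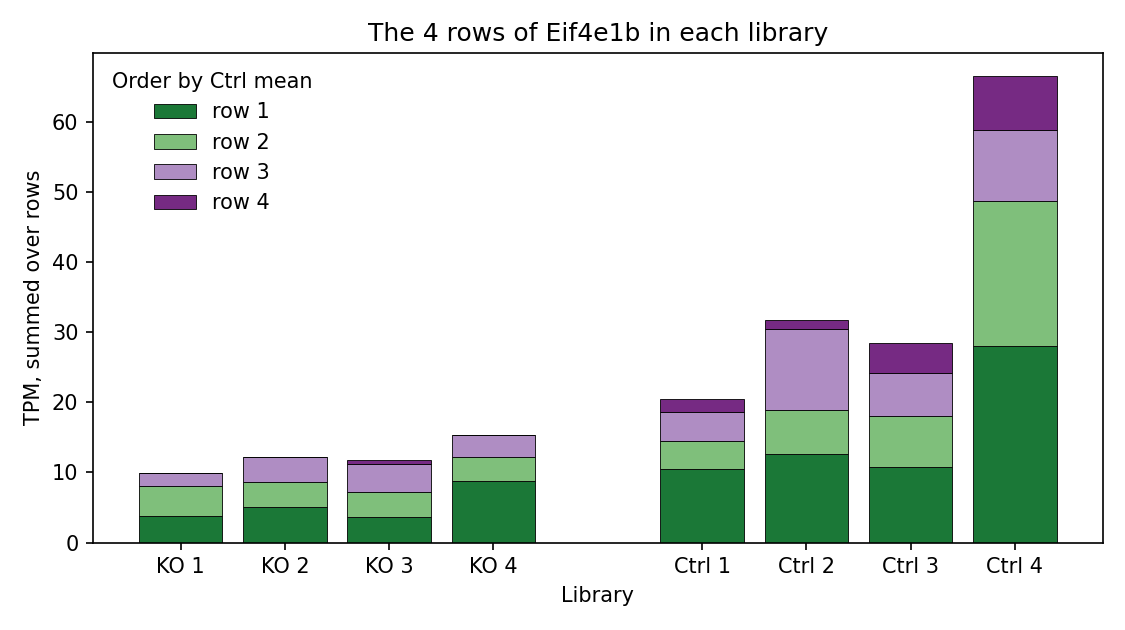
Stacked TPM of the 4 Eif4e1b rows in each library, KO left of Ctrl, with rows numbered by their Ctrl mean. Row 4, dark purple, is visible in every Ctrl bar and among the KO bars in KO 3 alone, and Ctrl 4 stands tallest with 66.5 TPM.

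Among RNA-binding proteins of storage, Pum2 (ENSMUSG00000020594.14, chromosome 12, 8674134 to 8752581) encodes a Pumilio repressor that binds the element shown above. It stood at 0.239, 1.91, 2.83 and 0.00917 TPM in KO, against 2.24, 13.8, 2.12 and 11.3 TPM in Ctrl. KO 3 lay above Ctrl 1 and Ctrl 3, and Ctrl 2 and Ctrl 4 carried the high Ctrl mean. The log2 fold change was -1.76 ± 0.63 (SE, limma adjusted p = 0.0236). Without Ctrl 2 and Ctrl 4 it was -0.72 (limma adjusted p = 0.281), and the call was also lost in 6 of its other 18 alternatives, both scalings and leaving out KO 1, KO 4, Ctrl 2 or Ctrl 4 singly (limma adjusted p = 0.0528 to 0.135).

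Caprin2 (ENSMUSG00000030309.16, chromosome 6, 148842492 to 148896237), of the cytoplasmic activation/proliferation-associated family, encodes an RNA-binding protein of ribonucleoprotein granules. It stood at 3.93, 0.979, 3.32 and 0.948 TPM in KO, against 10.8, 11.7, 3.26 and 15.3 TPM in Ctrl. The groups overlapped through Ctrl 3, which lay below KO 1 and KO 3. The mean was 2.29 ± 1.55 TPM in KO and 10.3 ± 5.06 TPM in Ctrl (SD, n = 4 each), or -1.75 ± 0.55 (SE) as log2 fold change (limma adjusted p = 0.0169). Median-of-ratios scaling ended the call (limma adjusted p = 0.0676) as did leaving out Ctrl 2 and Ctrl 4 (0.152), and it held when any 1 library was left out.

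For tail shortening, Cnot6l (ENSMUSG00000034724.18, chromosome 5, 96070333 to 96164171) encodes a catalytic deadenylase of CCR4-NOT. By mean it was the most abundant member in both groups, at 47.6, 18.8, 28.8 and 41.3 TPM in KO, against 44.8, 126, 44.4 and 92.5 TPM in Ctrl. KO 1 lay above Ctrl 1 and Ctrl 3, with KO 4 just below them. The log2 fold change, -1.09 ± 0.43 (SE, limma adjusted p = 0.0303), was the smallest of the 7 in size at a pseudocount of 1, though at a pseudocount of 5 it was larger than those of Pum2, Dcp1a and Hnrnpa3. It was -0.29 under median-of-ratios scaling (limma adjusted p = 0.355) and -0.46 without Ctrl 2 and Ctrl 4 (0.309), and 9 of its 20 alternatives lost the call, among them leaving out Ctrl 2, Ctrl 4, KO 2 or KO 3 singly (limma adjusted p = 0.0638 to 0.0935).

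For cap removal, Dcp1a (ENSMUSG00000021962.9, chromosome 14, 30479535 to 30527063) encodes a cofactor of the decapping enzyme DCP2. It stood at 5.80, 10.9, 9.55 and 8.50 TPM in KO, against 2.88, 0.658, 2.76 and 3.45 TPM in Ctrl. Every KO library lay above every Ctrl library, with KO 1 and Ctrl 2 the lowest of their groups. The mean was 8.70 ± 2.17 TPM in KO and 2.44 ± 1.22 TPM in Ctrl (SD, n = 4 each), or 1.56 ± 0.48 (SE) as log2 fold change (limma adjusted p = 0.0160). The call held with either scaling (log2 fold change 2.13 for median of ratios and 1.80 for quantiles). It was lost in 1 of 20 alternatives, without Ctrl 2 and Ctrl 4 (1.31, limma adjusted p = 0.0814). With Ctrl 2 alone left out, it held only narrowly (1.24, limma adjusted p = 0.0499). Cacna1d overlaps Dcp1a on the opposite strand, and the sources used here do not say that strand was used.

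For trimming from the 3′ end, Eri1 (ENSMUSG00000031527.7, chromosome 8, 35465253 to 35496196) encodes an exonuclease of histone mRNA ends and small RNAs. It was listed at 0.613 TPM in KO 1 and at 0 in the other 3 KO libraries, against 8.66, 5.80, 8.22 and 4.43 TPM in Ctrl. Ctrl 2 and Ctrl 4 were here the lowest Ctrl libraries, unlike in the other members lower in KO. The log2 fold change, at -2.75 ± 0.42 (SE; adjusted p = 0.000664 by limma), was the 10th lowest of the 402 genes at a pseudocount of 1, and over all alternatives the adjusted p ran from 2.78e-05 to 0.00766. A listed 0 can be a failed estimate of 1 transcript, and GENCODE M21 annotates 4 transcripts of Eri1 against 1 row in the table.

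Hnrnpa3 (ENSMUSG00000059005.13, chromosome 2, 75659261 to 75669407) encodes a heterogeneous nuclear ribonucleoprotein, one of the proteins that coat and process mRNA. It was at 0.00757, 0, 0.00123 and 0 TPM in KO, against 0.805, 10.3, 2.15 and 7.38 TPM in Ctrl. All KO libraries were at or near 0, while Ctrl spread widely with Ctrl 2 and Ctrl 4 on top. The log2 fold change was -2.26 ± 0.51 (SE, limma adjusted p = 0.00524), and -1.25 without Ctrl 2 and Ctrl 4 (0.0238). This value is uncertain in its source, since 36 other annotated genes, many of them with predicted-gene names, share at least 95% identity over 200 bp with Hnrnpa3 transcripts. The longest match, Gm5641, is identical over 1488 bp, and none of the 36 has a row.

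Scaling moved these results together. Median-of-ratios scaling raised the median log2 fold change of all genes tested by 0.70, to -0.35 against -1.05 as deposited, and quantile normalization raised it by 0.37. Set against the deposited median, the log2 fold change differed by -0.04 for Cnot6l, -0.33 for Eif4e1b, -0.70 for Caprin2, -0.71 for Pum2, -1.22 for Hnrnpa3, -1.70 for Eri1 and 2.61 for Dcp1a. That median is taken over rows picked for their difference, so it does not mark the level of an unchanged gene. Of all calls, 61.0% were lower in KO as deposited, 26.4% with median-of-ratios scaling and 39.2% after quantile normalization. Under median-of-ratios scaling 2 members passed as lower, Eri1 and Hnrnpa3, against 12.9% of all genes, and Dcp1a as higher, against 36.1%. Under quantile normalization 4 passed as lower, with Eif4e1b and Caprin2 added, against 23.4%. Without Ctrl 2 and Ctrl 4, Eri1 and Hnrnpa3 alone passed as lower, against 6.97% of all genes, and none as higher, against 6.47%. Eri1 and Hnrnpa3 are in each count of members passing as lower. Both reached the mean required for testing through Ctrl alone, so these counts do not set the members apart from the table. All 7 kept their direction in each of these settings. The pseudocount sets the size for the low genes. With pseudocounts of 0.1 and 5 the log2 fold change was -5.35 and -1.18 for Eri1, -5.12 and -0.91 for Hnrnpa3, -2.97 and -0.87 for Pum2, -2.19 and -1.02 for Caprin2 and 1.97 and 0.88 for Dcp1a. For Eif4e1b it was -1.44 and -1.17 and for Cnot6l -1.11 and -1.0002, and all 7 passed with both.

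**Figure D4:**
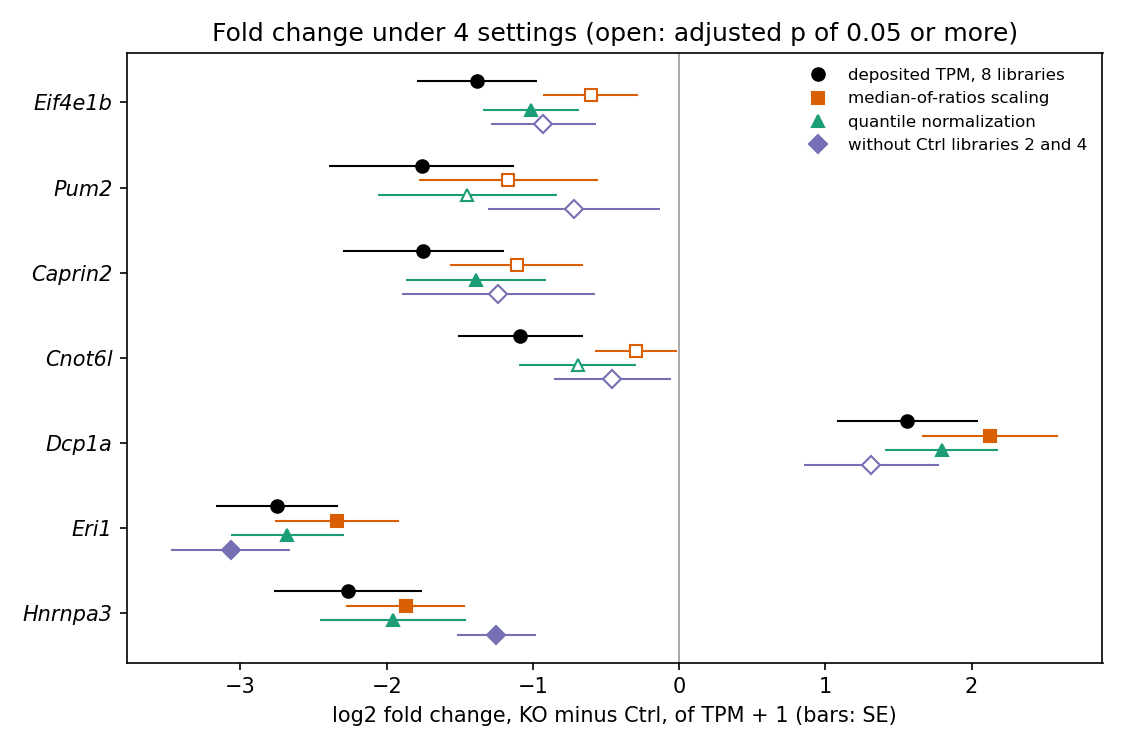
Log2 fold change, KO minus Ctrl, of TPM + 1 for each gene under 4 settings, with bars for the SE and open symbols where the limma adjusted p was 0.05 or more. Eri1 and Hnrnpa3 have filled symbols throughout, and Cnot6l ranges from -1.09 to -0.29.

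Within the table the members were spread across the range of falls. From the lowest log2 fold change of 402 genes, at a pseudocount of 1, Eri1 ranked 10, Hnrnpa3 18, Pum2 48, Caprin2 51, Eif4e1b 109 and Cnot6l 188, and Dcp1a ranked 55 from the highest. The members' median log2 fold change was -1.75, beside -1.05 for all genes tested. By mean level of the listed rows, the order in KO was Cnot6l, Eif4e1b, Dcp1a, Caprin2, Pum2, Eri1 and Hnrnpa3. In Ctrl it was Cnot6l, Eif4e1b, Caprin2, Pum2, Eri1, Hnrnpa3 and Dcp1a, so Dcp1a stood between Eif4e1b and Caprin2 in KO and last in Ctrl. Neighbours in these orders overlapped in range, except Cnot6l over Eif4e1b and Dcp1a over Caprin2 in KO and Eif4e1b over Caprin2 in Ctrl.

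**Figure D5:**
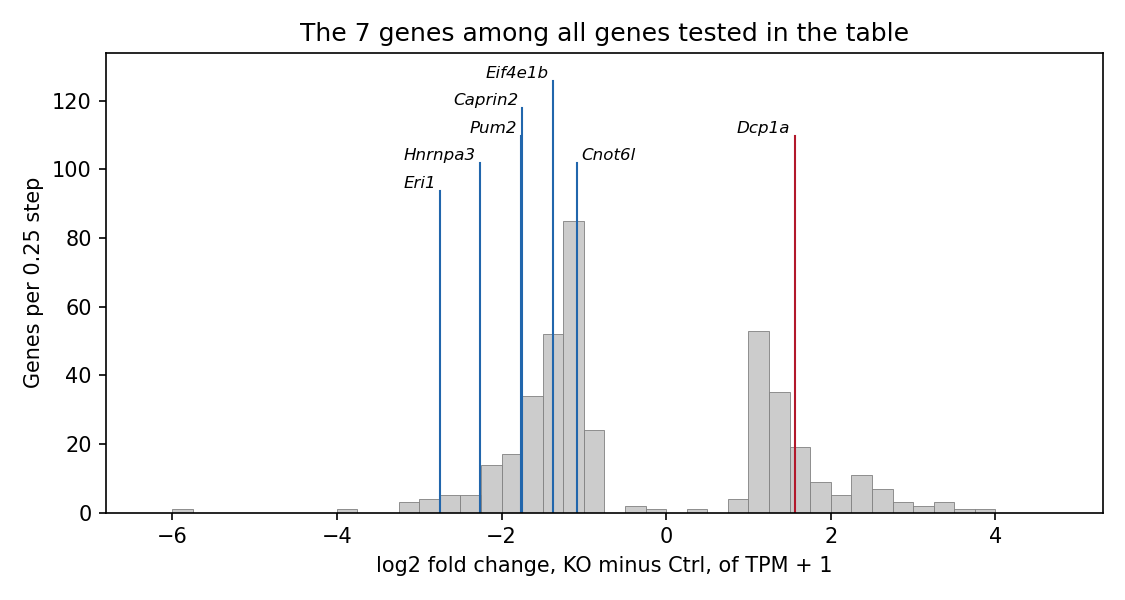
Histogram of the log2 fold change, KO minus Ctrl, of TPM + 1 over the 402 genes tested, in steps of 0.25, with lines at the 7 genes. The middle is nearly empty because the table lists rows that differ, and Eri1 at -2.75 and Hnrnpa3 at -2.26 stand toward the lower tail.

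The wider machinery is thinly covered by the table. Of 221 genes on 8 lists of storage, repression and decay, 13 had a row and 12 were tested, 7 of these being the members. Of the 12, 9 passed as lower and 2 as higher, where 57.2% of the whole table passed as lower and 36.6% as higher. The share passing either way was near the table's 93.8%. So few genes, most of them picked as members, do not set the lists apart by direction. Of the 6 that are not members, Ybx3, a cold shock domain protein, fell (6.84 to 9.998 TPM in KO, 12.1 to 32.9 TPM in Ctrl, limma adjusted p = 0.0266), a call lost under both scalings and without any 1 of KO 2, KO 4, Ctrl 2 and Ctrl 4. Hbs1l, of the ribosome rescue and mRNA surveillance pathway, fell (0 to 3.83 TPM in KO, 4.12 to 23.0 TPM in Ctrl, limma adjusted p = 0.00671). The hnRNP genes split. Hnrnpk fell (-1.35 ± 0.49 SE on the log2 scale; adjusted p = 0.0236 by limma), although KO 1 stood at 2.69 TPM with the other KO libraries at 0, and its call was lost under both scalings and without any 1 of KO 2, KO 3, KO 4 and Ctrl 2. The polypyrimidine tract-binding Ptbp3 rose (1.24 to 2.40 TPM in KO, 0 to 0.623 TPM in Ctrl, limma adjusted p = 0.0133). Hnrnpk averaged 0.671 TPM in KO and Ptbp3 0.325 TPM in Ctrl. Each reached the mean required for testing through its higher group alone, so the calls of Hnrnpk and Ptbp3 support nothing. Without Ctrl 2 and Ctrl 4 together, the calls of Ybx3, Hbs1l, Hnrnpk and Ptbp3 were all lost (limma adjusted p = 0.0777 to 0.203). Their log2 fold changes were then -0.59 for Ybx3, against -1.12 with all libraries, and -2.05 for Hbs1l, against -2.69. Those of Hnrnpk (-1.50, against -1.35) and Ptbp3 (1.19, against 1.22) stayed about as large. Ptbp1 did not pass (limma adjusted p = 0.0551), with 15.2 TPM in KO 2 against at most 1.71 TPM in the other KO libraries and 0 to 0.498 TPM in Ctrl, although it passed without KO 1 (0.0331) or KO 4 (0.0341). Its log2 fold change of 1.31 became 0.49 without KO 2 (limma adjusted p = 0.164) and 0.64 with array weights (0.210). Ptbp1, with a mean of 0.192 TPM in Ctrl, likewise reached testing through KO alone. Gigyf2, a translational repressor at the cap, was under the filter, at 0, 0, 0 and 0.573 TPM in KO and 1.86, 2.49, 0.182 and 0.733 TPM in Ctrl. No gene of nonsense-mediated decay or of the m6A machinery on the lists had a row, and among the 35 deadenylation and 20 decapping genes only Cnot6l and Dcp1a had one. Genes without a row were not analysed here.

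The genes most like each member over the 8 libraries, by Pearson's r of log2(TPM + 1), are given as a description, since every pair shares the libraries and the split between the groups. They were Eps8 (0.97) and Gtf2f1 (0.96) for Eif4e1b, Gsk3b and Myo18a (0.93 each) for Pum2, and Kat6b (0.98) and Qars (0.97) for Caprin2. For Cnot6l they were Cct2 (0.97) and Eif2s3x (0.95), and for Dcp1a Sun1 and Pld1 (0.99 each). For Eri1 they were Psma6 (0.97) and Cct5 (0.95), and for Hnrnpa3 Clpx and Rpf2 (0.98 each).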

How the data were processed

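RNA-seq of 8 libraries of merged metaphase II oocytes was used, grouped by title. The deposited values are TPM. The tools named in the submitters' processing notes are kallisto 0.46.2 and sleuth 0.30.1, with GRCm38. How rows were chosen, which annotation was used and whether strand was used is not given in the sources used here. Rows of one gene name were summed, and genes averaging 1 TPM or more were kept (402 of 417, with all 7 members). Fits used limma 3.58.1 in R 4.3.3 (lmFit, eBayes with trend, two-sided) on log2(TPM + 1) across all genes, with p-values adjusted by Benjamini-Hochberg and called below 0.05. Fold changes on this scale understate those of low genes. This fit was first tested on simulated data with levels above those deposited and only part of the genes changed. That test does not cover rows near 0 or a table picked for its difference. TPM keep no depth, so count tools were not run. Shares were compared by exact permutation (scipy 1.17.1, Python 3.11.15).

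Named genes are the members, all list genes with a row, the nearest listed gene within 1 Mb and the 2 most correlated genes. Members and lists were chosen with earlier results of these data known. Names and positions come from GENCODE M21, where 416 of 417 matched; near-identical copies were searched with blastn 2.17.0. Alternatives were other pseudocounts, filters and eBayes settings, 2 scalings computed on the listed genes, array weights, a replicate block, unsummed rows, mitochondrially encoded genes left out, and libraries left out. The filter was set once on all 8 libraries. Replicate numbers are used as names.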

Additional observations from a re-analysis of the deposited data

Results flagged for a closer look

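In 8 cases 1 library lay far from the others of its group of 4, among 34 groups checked, where chance flags about 1 in 20. That rate does not apply to Eri1, Hnrnpk and Gigyf2 in KO, where the other 3 libraries are at 0 and any value above 0 stands out by construction. Nor is it a guide for Hnrnpa3 in KO, at or near 0 throughout, or for Eif4e1b row 4 in KO, at or near 0 apart from KO 3. For Eif4e1b row 1, Ctrl 4 stood at 28.0 TPM and the next Ctrl library at 12.6 TPM. The other cases are KO libraries. Eri1 was at 0.613 TPM in KO 1 and at 0 elsewhere, Hnrnpk at 2.69 TPM in KO 1 and at 0 elsewhere, and Gigyf2 at 0.573 TPM in KO 4 and at 0 elsewhere. Hnrnpa3 was at 0.00757 TPM in KO 1 with 0.00123 TPM next, and Eif4e1b row 4 at 0.582 TPM in KO 3 with 0.0133 TPM next. Ptbp1 was at 15.2 TPM in KO 2 with 1.71 TPM next, and Ptbp3 at 1.24 TPM in KO 3 with 2.25 TPM next.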

How the results depend on the processing

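Eri1 and Hnrnpa3 passed in all 19 alternatives that gave them a value, Dcp1a in 19 of 20, Eif4e1b and Caprin2 in 18 of 20, Pum2 in 12 of 19 and Cnot6l in 11 of 20, and no member changed direction. For Eri1 and Hnrnpa3, which reached the mean required for testing through Ctrl alone, these calls support nothing. Members lower in KO numbered 6 as deposited, 2 under median-of-ratios scaling, 2 without Ctrl replicates 2 and 4 together (with 0 higher, against 1) and 3 of the 4 tested with a mean of at least 5 TPM, where fewer genes are tested. List genes numbered 9 lower and 2 higher, against 3 lower under median-of-ratios scaling, 5 under quantile normalization, 2 lower and 0 higher without Ctrl replicates 2 and 4, and 5 lower and 1 higher at 5 TPM. Over all genes, 230 were lower and 147 higher, against 52 lower under median-of-ratios scaling, 94 lower under quantile normalization, 28 lower and 26 higher without Ctrl replicates 2 and 4, and 139 lower and 74 higher at 5 TPM. Leaving out 1 library at a time gave 114 to 228 lower and 74 to 140 higher over all genes, 4 to 6 members lower, and 5 to 9 list genes lower. The fewest over all genes came without Ctrl replicate 2 (114 lower, 74 higher). The summed TPM of the list genes, KO over Ctrl, was 0.411 as deposited and 0.785 under median-of-ratios scaling. Without Ctrl replicates 2 and 4 together, the median log2 fold change of all genes tested was -0.62, against -1.05 with all libraries. The 5 TPM filter tests fewer genes, and leaving out libraries makes the sample smaller. The cause of these differences was not tested.

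The replicate numbers share no stated source, and deviations of same-numbered libraries correlated at -0.26 to 0.0654. These correlations, over rows picked for their difference, cannot show whether same-numbered libraries share a source. The numbers were not used as pairs in the main fit. With the replicate block, Cnot6l had an adjusted p of 0.0502, the other 6 members passed, Ybx3 did not (0.0736), Ptbp1 did (0.00864), and all genes gave 167 lower and 112 higher. Both scalings are computed from rows picked for their difference. Depth is unknown, so levels near 0 cannot be given a detection limit.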

Other observations

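The nearest listed gene within 1 Mb was found for 6 of the 7 members. Next to Eri1, 91602 bp away, Mfhas1 stood at 92.7, 91.0, 91.7 and 86.5 TPM in KO, against 7.87, 12.5, 10.7 and 14.7 TPM in Ctrl, the opposite direction to Eri1. Mfhas1 passed (limma adjusted p = 6.54e-05). Next to Pum2, 18742 bp away, Sdc1 rose where Pum2 fell, at 36.4 to 93.0 TPM in KO and 5.78 to 39.8 TPM in Ctrl (limma adjusted p = 0.0144). Ipo8, 11025 bp from Caprin2, fell with it, at 0 to 7.05 TPM in KO and 0.955 to 46.4 TPM in Ctrl (limma adjusted p = 0.0178), which median-of-ratios scaling ended. Actr8, 473181 bp from Dcp1a, fell, at 0 to 1.63 TPM in KO and 0.589 to 14.0 TPM in Ctrl (limma adjusted p = 0.0294), a call lost under both scalings and without any 1 of KO 2, KO 4, Ctrl 2 and Ctrl 4 (limma adjusted p = 0.0682 to 0.0898). Ddx41 near Eif4e1b and Gm3286 near Cnot6l also fell (limma adjusted p = 0.0143 and 0.0154), and the call of Gm3286 did not hold with median-of-ratios scaling. Actr8 and Ddx41 averaged 0.705 and 0.411 TPM in KO, against 6.82 and 3.58 TPM in Ctrl. Both reached the mean required for testing through Ctrl alone, so their calls support nothing. Without Ctrl 2 and Ctrl 4 together, Mfhas1 and Ipo8 passed and the calls of Sdc1, Actr8, Ddx41 and Gm3286 were lost (limma adjusted p = 0.0738 to 0.492). The log2 fold change was then -0.34 for Actr8, against -1.74 with all libraries, -0.92 for Ddx41, against -1.55, and 1.30 for Sdc1, against 1.73. That of Gm3286 was no smaller in size (-2.36, against -2.18).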
